A study of Mus musculus with 6 samples.

Results

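The genes described here encode glycoproteins that sit on, or just outside, the surface of endothelial cells. Members were taken by name, and all 10 named genes (Clec14a, Cd93, Mmrn2, Egfl7, Emcn, Cd34, Podxl, Ecscr, Ly6a and Ly6c1) were found among the 43271 gene identifiers of the count table. RNA was sequenced from primary microvascular endothelial cells of wild-type C57BL/6 mouse brain, at passages 2 to 6 and grown to confluence. Of the 6 libraries, 3 are from cells kept for 24 h with vehicle (dimethyl sulfoxide, DMSO) and 3 from cells kept for 24 h with 5000 ng/ml of dolutegravir (DTG), a drug that blocks the integrase of HIV. All were grown in a medium with vascular endothelial growth factor, epidermal growth factor, hydrocortisone and heparin. Library names carry a P4 or P5 tag that the labels do not define. DMSO replicate 1 and DTG replicates 2 and 3 are P4 libraries, and DMSO replicates 2 and 3 and DTG replicate 1 are P5 libraries. In the count table, DTG replicate 1 appears under the spelling DIG. A further number in these names, also undefined, is the same for DMSO replicates 1 and 2, for DTG replicates 1 and 2, and across groups for DMSO replicate 3 and DTG replicate 3. Whether the 3 libraries of a group are separate cultures is not stated. The p-values therefore reflect only how far these libraries differ, which may be technical spread.

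Endothelial cells carry a dense coat of glycoproteins on the side that faces the blood. CLEC14A and CD93 are related receptors with a C-type lectin-like domain, and both bind multimerin 2 (MMRN2), a protein that endothelial cells deposit in their matrix and that is known for its part in vessel sprouting. CD34 and podocalyxin (PODXL) belong to one family of sialomucins, proteins covered with sialylated O-linked sugars, and endomucin (EMCN) is a further endothelial sialomucin. EGFL7 is secreted and stays in the matrix around endothelial cells, and its gene hosts the microRNA miR-126. ECSCR is a small membrane protein of endothelial cells. LY6A (also called Sca-1) and LY6C1 are small proteins held in the membrane by a glycosylphosphatidylinositol (GPI) anchor, are abundant in mouse brain endothelium, and are also known from blood cells and as interferon-induced genes.

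The libraries held between 41162353 and 56316335 counts, and the least abundant member still had at least 3184 counts in every library, so counting error was small beside the spread between libraries. Levels are in CPM, counts relative to the library size after TMM, a scaling that assumes most genes do not change. Of 10 endothelial markers (Pecam1, Cdh5, Tek, Tie1, Erg, Esam, Cldn5, Kdr, Flt1 and Vwf) none was near 0, and they summed to 11310 to 12334 CPM in DMSO libraries and to 7107 to 7406 CPM in DTG libraries. Among blood cell markers 6 of 8 were under 0.1 CPM, and Ptprc, the common leukocyte antigen, had 1 count in all DMSO and 4 counts in all DTG libraries. Summed over that list, DMSO libraries held 197 to 200.5 CPM and DTG libraries 228 to 289.6 CPM, nearly all of it Lcp1. Of 8 microglia and macrophage markers 7 were under 0.1 CPM, 4 of them (Tyrobp, C1qa, C1qb and P2ry12) at 0 counts. Mural cell markers (9, with Rgs5 and Kcnj8 at 0 counts) summed to 1.08 to 1.99 CPM with DMSO and 2.01 to 2.53 CPM with DTG, and Pdgfrb rose (edgeR adjusted p = 0.000594). Neuron markers (6, with Map2 at 0 counts) summed to 0.158 to 0.322 CPM and 2.21 to 6.04 CPM, nearly all of the latter from Tubb3, with 16 counts in DMSO and 693 in DTG (edgeR adjusted p = 2.00e-05). Pdgfrb had 30 counts in DMSO and 109 in DTG. The filter that chose genes for the test kept Pdgfrb and Tubb3 through DTG, where they were high, so neither p-value is read as support. Astrocyte markers (6, with Aqp4 at 0 counts) summed to 3.27 to 5.53 CPM and 1.80 to 2.25 CPM, and S100b fell (edgeR adjusted p = 0.000836). Fibroblast markers (7, none at 0 counts) summed to 6.52 to 7.503 CPM and 7.76 to 8.69 CPM. Among them Col1a1 rose from 0.435 to 0.842 CPM (edgeR adjusted p = 0.0179), and Col1a2 had 2 and 57 counts and was not tested. Epithelial markers (7, with Epcam and Wt1 at 0 counts) summed to 6.17 to 8.02 CPM and 6.50 to 8.77 CPM. Oligodendrocyte markers (6, with Mog, Olig1 and Olig2 at 0 counts) summed to 42.0 to 49.96 CPM and 33.5 to 42.3 CPM, most of it Cnp, which fell (edgeR adjusted p = 0.0340). The part of these marker levels in the results was not tested.

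Dolutegravir-treated cultures had less RNA of 7 of the 10 surface genes, and none was higher. Clec14a and Mmrn2 fell most, to 33.7% and 43.4% of their DMSO means. Cd34, Egfl7, Cd93, Podxl and Emcn fell to between 63.0% and 79.4%. Ecscr, Ly6a and Ly6c1 did not pass the test. In bulk RNA, fewer cells of a type and less RNA per cell cannot be told apart. Calls come from edgeR's quasi-likelihood test over 14101 genes, with Benjamini-Hochberg adjustment over all of them and a threshold of 0.05. Of all genes tested, 56.7% were called, 29.3% lower and 27.4% higher, so a call was common in this comparison. The 7 genes were also the ones in which every DTG library lay below every DMSO library, a pattern seen in 33.1% of all genes tested, while groups without overlap in either direction made up 64.2%. The median log2 fold change of the 10 genes was -0.53, against -0.01 for all genes tested. Only Clec14a and Mmrn2 were lower by at least 1 log2, as were 8.35% of all genes tested.

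**Figure D1:**
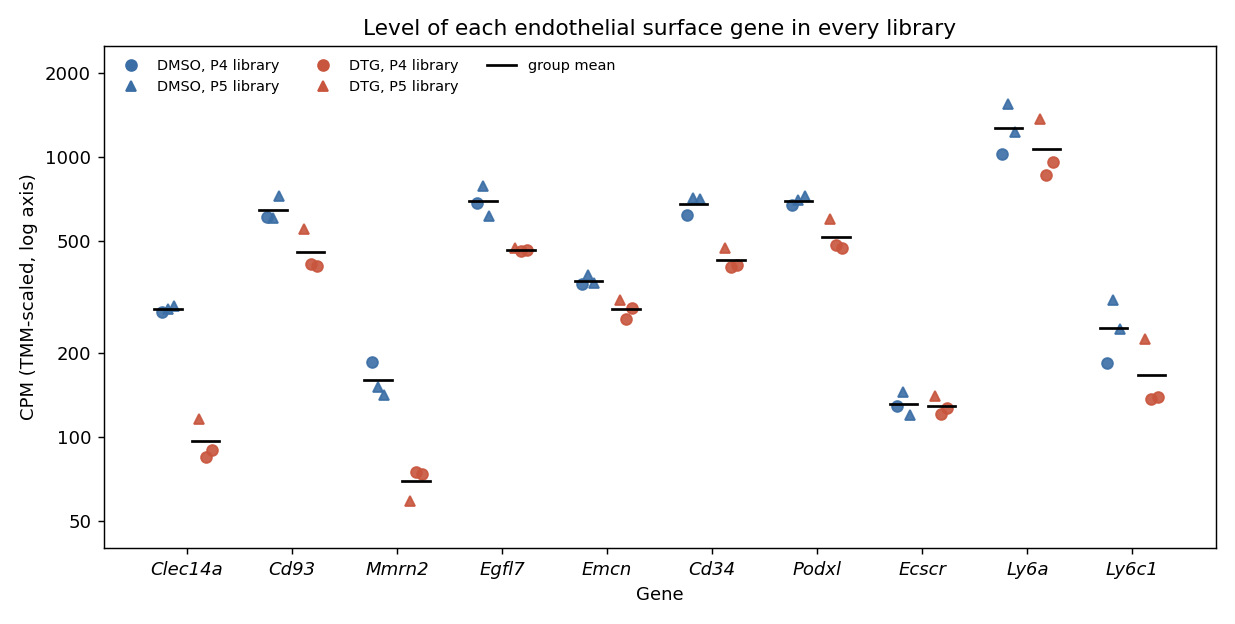
Level of each gene (CPM, log axis) in each of the 6 libraries, with DMSO in blue, DTG in red, circles for P4 and triangles for P5 libraries, and a line at each group mean. The groups are apart for Clec14a, Cd93, Mmrn2, Egfl7, Emcn, Cd34 and Podxl, and they overlap for Ecscr, Ly6a and Ly6c1, with P5 above P4 libraries of the same group for Ly6a and Ly6c1.

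Among the lectin-like receptors, Clec14a showed the larger fall. Its level was 279, 288 and 294 CPM in DMSO replicates 1, 2 and 3, and 116, 84.5 and 89.5 CPM in DTG replicates 1, 2 and 3. The DMSO libraries were close together and no DTG library came near them. With means of 287 ± 7.31 and 96.6 ± 16.8 CPM (SD, n = 3 each), Clec14a changed by -1.57 ± 0.11 log2 (SE; edgeR adjusted p = 2.84e-06). Cd93 stood at 612, 604 and 727 CPM in DMSO and at 552, 414 and 410 CPM in DTG. DTG replicate 1 came close to the lower DMSO libraries without reaching them. Its log2 change was -0.50 ± 0.13 (SE; edgeR adjusted p = 0.00653).

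The ratio of Clec14a to Cd93 within a library does not depend on how libraries are scaled. It was 0.456, 0.476 and 0.404 in DMSO and 0.210, 0.204 and 0.218 in DTG. The receptors therefore changed unequally, by -1.08 log2 for the ratio, with no overlap between groups. A two-sided exact permutation test gave p = 0.1 (adjusted 0.1 over the 4 ratios computed), the smallest that 3 libraries against 3 allow.

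Mmrn2, the matrix ligand of these receptors, fell from 186, 151 and 142 CPM to 59.1, 74.9 and 73.9 CPM. DTG replicate 1, which had the highest DTG level of each of the other 9 genes, had the lowest level of Mmrn2. The log2 change of Mmrn2 was -1.20 ± 0.12 (SE; edgeR adjusted p = 2.31e-05). Cd93 fell less than its ligand: the ratio of Cd93 to Mmrn2 was 3.29, 3.99 and 5.14 in DMSO and 9.34, 5.53 and 5.55 in DTG. Its log2 difference of 0.69 had an exact permutation p = 0.1 (two-sided, n = 3 each). It was 0.44 without DTG replicate 1, where the ratio was highest.

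Egfl7 fell from 688, 788 and 616 CPM to 472, 461 and 466 CPM. The DTG libraries were nearly equal (467 ± 5.58 CPM, SD, n = 3), whereas the DMSO libraries spread widely (697 ± 86.4 CPM, SD, n = 3). The log2 change was -0.58 ± 0.09 (SE; edgeR adjusted p = 0.000486). The hairpin gene Mir126a lies inside Egfl7 on the same strand in the GENCODE annotation. The mature microRNA is shown because Egfl7 is its host gene, and poly(A) libraries do not measure it. Its mature 3p form, from RefSeq on GRCm38.p6, is printed 5′ to 3′ with the seed (bases 2 to 8) in capitals.
mmu-miR-126a-3p: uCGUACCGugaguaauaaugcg
Mir126a had 0 counts in all 6 libraries, and a count of 0 allows up to 3 counts of reads that could be assigned to it. It shares 73 exon bases with Egfl7 on the same strand, 2.04% of the exon bases of Egfl7. Reads from there may have been counted for Egfl7 or for neither gene. Of 3 genes reported as targets of miR-126, Pik3r2, a regulatory subunit of phosphoinositide 3-kinase, fell from 23.5 ± 3.15 to 15.6 ± 2.24 CPM (SD, n = 3 each; edgeR adjusted p = 0.00321). The Ras pathway inhibitor gene Spred1 was at 65.1 CPM with DMSO and 80.3 CPM with DTG, the adhesion molecule gene Vcam1 was at 53.2 and 56.8 CPM, and neither passed (edgeR adjusted p = 0.135 and 0.389). In the same annotation 7.37% of the exon bases of Egfl7 overlap the predicted gene Gm20532 on the same strand, and 1.79% overlap Agpat2 on the other strand, while 2.03% of those of Cd34 overlap Gm16897 on the other strand. How the counting used strand is not given in the sources used here, so reads from such stretches cannot be assigned with certainty.

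Among the sialomucin genes the fall was largest for Cd34, then Podxl, then Emcn. Cd34 stood at 624, 712 and 708 CPM in DMSO and at 472, 404 and 413 CPM in DTG. Its log2 change was -0.67 ± 0.09 (SE; edgeR adjusted p = 0.00015). Every DTG library was well below the lowest DMSO library. Podxl stood at 674, 701 and 726 CPM in DMSO and at 602, 487 and 472 CPM in DTG, a log2 change of -0.43 ± 0.10 (SE; edgeR adjusted p = 0.00423). The ratio of Podxl to Cd34 was 1.08, 0.984 and 1.03 in DMSO and 1.28, 1.21 and 1.14 in DTG. This difference of 0.23 log2 had no overlap between groups (two-sided exact permutation p = 0.1, n = 3 each).

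Emcn had the smallest fall that passed. It stood at 353, 379 and 354 CPM in DMSO and at 310, 264 and 289 CPM in DTG, a log2 change of -0.33 ± 0.08 (SE; edgeR adjusted p = 0.00559). Without DTG replicate 2 the log2 change was -0.25 and did not pass (edgeR adjusted p = 0.0528, range over 16 alternatives 0.000567 to 0.0528).

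Ecscr, the small membrane protein gene, did not pass, and its interval was narrow. It stood at 129, 144 and 119 CPM in DMSO and at 140, 121 and 127 CPM in DTG. The groups overlapped fully. The log2 difference was -0.02, with a 95% interval from -0.22 to 0.18 (edgeR adjusted p = 0.881). Its sign changed with the setting (-0.19 to 0.06 over 16 alternatives), and it passed in none of them. Of its exon bases 3.54% overlap a gene on the opposite strand, 1700066B19Rik.

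**Figure D2:**
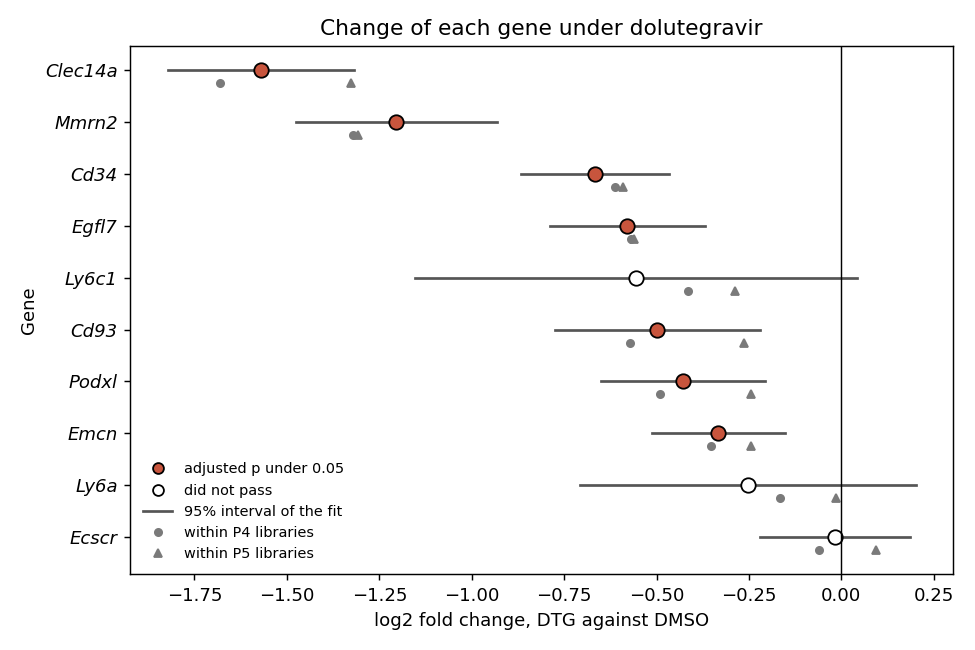
Log2 fold change of each gene, DTG against DMSO (horizontal axis), with the 95% interval of the fit as a line and filled circles for genes with an adjusted p under 0.05. Small grey circles and triangles give the difference among P4 and among P5 libraries. Clec14a and Mmrn2 lie below -1, and the intervals of Ecscr, Ly6a and Ly6c1 include 0.

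The GPI-anchored genes varied more between libraries than the other members. Ly6a was at 1024, 1556 and 1233 CPM in DMSO and at 1372, 866 and 961 CPM in DTG. Ly6c1 was at 184, 308 and 242 CPM in DMSO and at 224, 136 and 139 CPM in DTG. In each group the P5 libraries were above the P4 libraries for both genes, and the groups overlapped. The log2 differences were -0.25 (95% interval -0.71 to 0.20; edgeR adjusted p = 0.304) for Ly6a and -0.56 (95% interval -1.15 to 0.04; edgeR adjusted p = 0.1) for Ly6c1.

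With the tag as a term, 8 of the 10 genes and 29.5% of all genes tested were called lower. The added gene, Ly6c1, passed at a log2 change of -0.36 ± 0.10 (SE; edgeR adjusted p = 0.0102), and Ly6a did not, at -0.09 ± 0.10 (SE; edgeR adjusted p = 0.459). Ly6c1 also passed with library-size scaling, without DMSO replicate 1 and when DTG replicate 1 was left out (edgeR adjusted p = 0.0458, 0.0325 and 0.00865). Over 16 alternatives its adjusted p ranged from 0.00865 to 0.302. Ly6a passed only without DTG replicate 1 among the same 16 (-0.44 log2, edgeR adjusted p = 0.0361, range 0.0361 to 0.740). The ratio of Ly6a to Ly6c1 was steadier than either gene, at 5.58, 5.05 and 5.09 in DMSO and 6.12, 6.36 and 6.91 in DTG (0.30 log2, two-sided exact permutation p = 0.1, n = 3 each).

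Reads of the Ly6 genes can be hard to tell apart. Of the 50-base words in GENCODE transcripts of Ly6c1, 32.8% also occur in another gene, mostly Ly6c2, Ly6a and Ly6i, and 19.0% of those of Ly6a do. With 100-base words the shares were 10.1% and 1.45%. Egfl7 shared 4.94% of its 50-base words, Cd93 0.604% and Cd34 0.447%, and the other 5 genes shared none. The coding sequences of Ly6c1 and Ly6c2 were identical at 91.6% of aligned bases, and those of Ly6a and Ly6c1 at 77.6%. Coding bases 1 to 120 from the start codon are printed to show how alike they are, from GENCODE M21, with each base that differs from Ly6c1 in capitals (6 in Ly6c2 and 8 in Ly6a).
Ly6c1: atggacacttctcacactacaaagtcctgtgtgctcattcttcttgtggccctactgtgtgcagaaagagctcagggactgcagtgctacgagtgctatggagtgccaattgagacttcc
Ly6c2: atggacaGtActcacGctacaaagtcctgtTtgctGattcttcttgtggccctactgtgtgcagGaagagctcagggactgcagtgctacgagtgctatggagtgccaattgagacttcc
Ly6a: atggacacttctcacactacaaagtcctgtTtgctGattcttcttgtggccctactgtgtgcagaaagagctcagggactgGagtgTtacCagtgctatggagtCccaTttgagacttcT
Ly6c2 itself stood at 1.51 ± 0.22 CPM in DMSO and 1.29 ± 0.32 CPM in DTG (SD, n = 3 each; edgeR adjusted p = 0.420). How the authors' counting treated reads that match several genes is not given in the sources used here. When the counts of all 17 matched genes named Ly6 were summed before the fit, the sum was lower in DTG by -0.49 ± 0.17 log2 (SE; edgeR adjusted p = 0.0315). That sum holds Ly6e, which fell on its own.

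The direction of change was the same within each tag for 9 of the 10 genes. The difference was lower within the P4 than within the P5 libraries for all 10, although for Egfl7, Mmrn2 and Cd34 hardly so, and the fitted interaction had the opposite sign for Egfl7. Clec14a differed by -1.68 log2 within P4 and by -1.33 within P5, Cd93 by -0.57 and -0.26, Podxl by -0.49 and -0.24, and Emcn by -0.35 and -0.24. Mmrn2, Egfl7 and Cd34 differed alike in each tag, by -1.32 and -1.31, -0.57 and -0.56, and -0.61 and -0.59. Ly6c1 differed by -0.41 and -0.29, and Ly6a by -0.17 and -0.01. Ecscr was the exception in sign, at -0.06 and 0.09. Each of these differences rests on 3 libraries, with a single DMSO library in P4 and a single DTG library in P5. They reuse the libraries of the main comparison, and the shares of all genes tested with the same patterns were not computed. Neither count is therefore separate support. In edgeR's test of a treatment by tag interaction, 0 of the 10 genes and 0.00% of all genes tested passed. At an unadjusted p under 0.05, 1 of the 10 (Clec14a, 0.35 log2, edgeR adjusted p = 0.461) and 9.58% of all genes tested did, and no other tool was run on this term.

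Levels between genes were compared per kilobase of exon, with lengths from the GENCODE annotation joined by gene identifier. In DMSO, Ly6a led at 1055 ± 222 CPM per kilobase (SD, n = 3), followed by Egfl7 at 195 and Ly6c1 at 146. Podxl stood at 128, Cd93 at 97.0, Cd34 at 93.5, Ecscr at 74.8, Emcn at 66.9, Clec14a at 62.7 and Mmrn2 at 40.2 CPM per kilobase. Each of these levels lay above 92.0% of all genes tested. Library ranges of neighbours in this order overlapped for Egfl7 and Ly6c1, Ly6c1 and Podxl, Cd93 and Cd34, and Ecscr and Emcn. In DTG the order was much the same, with Ly6a at 885 CPM per kilobase and Mmrn2 last at 17.4. Ecscr moved ahead of Cd93 and Cd34 (73.9, 68.7 and 58.9 CPM per kilobase), although the library ranges of Ecscr and Cd93 overlapped. Clec14a, at 21.1 CPM per kilobase, moved from above 95.3% to above 81.5% of all genes tested, and Mmrn2 to above 77.5%. Together the 10 genes made up 0.507%, 0.597% and 0.545% of all counts in DMSO and 0.413%, 0.309% and 0.323% in DTG.

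**Figure D3:**
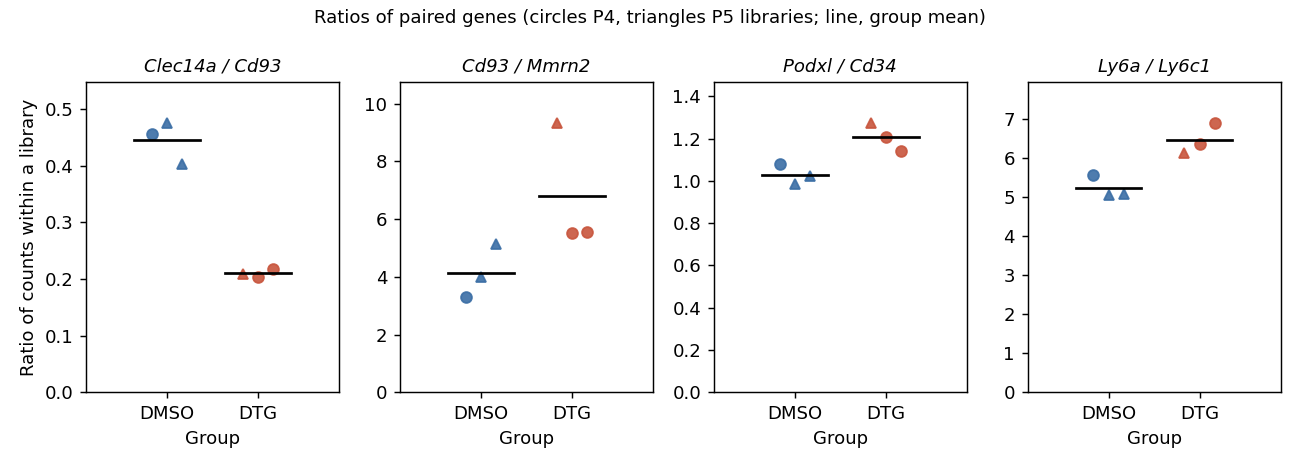
Ratio of counts of paired genes within each library (vertical axes, each from 0) in DMSO (blue) and DTG (red), with circles for P4 and triangles for P5 libraries and a line at each group mean. Clec14a to Cd93 falls from 0.404 to 0.476 in DMSO to 0.204 to 0.218 in DTG, and the other ratios are higher in every DTG than in every DMSO library.

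Windows from RefSeq's promoter table were searched for 5 of the 10 genes (Cd34, Clec14a, Egfl7, Emcn and Ly6c1), some with several starts. The table held no entry for Cd93, Mmrn2, Podxl and Ly6a. Ecscr was not searched, because windows of its chromosome were left out for members, though kept among the windows of all genes. Bases -250 to -51 from the annotated start are printed for the 3 searched genes with a single start, all of which fell. Matches on either strand to GGAAG, the core of the sites that ETS factors bind, are in capitals. The windows are on GRCm38.p6, which is not the build of the counts. They are chr12:58269309-58269508 on the minus strand for Clec14a, chr1:194938571-194938770 on the plus strand for Cd34, and chr3:137340828-137341027 on the plus strand for Emcn.
Clec14a: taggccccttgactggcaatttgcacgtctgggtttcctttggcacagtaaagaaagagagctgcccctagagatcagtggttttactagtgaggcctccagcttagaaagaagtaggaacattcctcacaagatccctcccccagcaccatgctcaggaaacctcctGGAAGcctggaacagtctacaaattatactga
Cd34: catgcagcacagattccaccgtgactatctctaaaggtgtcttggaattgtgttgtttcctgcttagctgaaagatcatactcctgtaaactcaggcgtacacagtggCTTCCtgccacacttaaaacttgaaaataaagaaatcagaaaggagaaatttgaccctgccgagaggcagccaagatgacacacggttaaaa
Emcn: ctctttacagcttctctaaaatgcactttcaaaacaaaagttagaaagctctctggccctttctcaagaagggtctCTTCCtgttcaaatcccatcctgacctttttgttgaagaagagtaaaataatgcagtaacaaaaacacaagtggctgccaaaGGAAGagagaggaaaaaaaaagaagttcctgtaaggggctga
The Clec14a and Cd34 windows held 1 match each and the Emcn window 2. GGAAG was found in 7 of the 8 windows of the 5 genes and in 55.0% of the 32851 windows of all genes. Egfl7 and Ly6c1 each gave several of the 8 windows, and those of Ly6c1 overlap, so the 8 are not separate cases. Of 5 further motifs searched on both strands, ACAAT was found in 1 window (Cd34, 23.7% of all windows). CCACCC (22.4% of all windows), TTCNNNGAA (5.76%), GAAA and GAAA 2 bases apart (2.40%) and CCAAT and CCACG 9 bases apart (0.0944%) were not found in these 8 windows. The fixed letters of no motif contain those of another. A match says only that these letters are present.

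Over all genes tested, 29.3% were called lower and 27.4% higher, and the lists below are to be read beside these shares. Relatives of the lectin-like receptors and of MMRN2 moved in different directions. Of 9 listed genes 7 were tested, and 3 rose and 3 fell, with a median log2 change of -0.41 that was -0.25 without DMSO replicate 2 and -0.27 without DTG replicate 1. Thbd, which encodes the anticoagulant receptor thrombomodulin of the same lectin-like family, fell from 723 ± 85.8 to 459 ± 119 CPM (SD, n = 3 each; edgeR adjusted p = 0.00793). It missed the threshold when genes were not filtered by count (edgeR adjusted p = 0.0677, range over 16 alternatives 8.81e-05 to 0.0677). Cd248, the family member of stromal cells, was near the detection limit, with 60 counts in all DMSO and 14 in all DTG libraries (edgeR adjusted p = 0.000591). Mmrn1, the relative of Mmrn2 known from platelets, had 19 and 117 counts (edgeR adjusted p = 0.000965). The count filter kept Cd248 through DMSO and Mmrn1 through DTG, each the group where the gene was high. Their p-values are therefore not read as support. With a filter at 1 CPM in 3 libraries both dropped out, and of 5 tested genes 2 rose and 2 fell. Of all 12090 genes tested at that filter, 3620 rose and 3646 fell. Emilin2, a matrix glycoprotein gene, rose from 2.67 ± 0.31 to 6.92 ± 1.11 CPM, and Gipc1, whose product binds the tail of CD93, from 52.2 ± 6.62 to 89.1 ± 6.62 CPM (SD, n = 3 each; edgeR adjusted p = 4.79e-05 and 0.000135).

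Around the sialomucins, 3 of 10 tested genes rose and 2 fell, against 27.4% and 29.3% of all genes tested. Their median log2 change of 0.16 was -0.01 with library-size scaling and 0.07 with upper-quartile factors. With the tag as a term, or without DMSO replicate 3, 5 rose. Ezrin (Ezr), which links podocalyxin to actin, rose from 57.7 ± 6.04 to 127 ± 17.3 CPM (SD, n = 3 each; edgeR adjusted p = 2.02e-05). Products of the PDZ adaptor genes Nherf1 and Nherf2 (Slc9a3r1 and Slc9a3r2 in the name table) join the podocalyxin tail to ezrin. Nherf1 fell from 12.4 ± 1.74 to 7.39 ± 0.90 CPM (edgeR adjusted p = 0.000924). Nherf2 fell by 0.41 on the log2 scale from 173 CPM (edgeR adjusted p = 0.00467). The selectin genes Selp and Sele, in the list because L-selectin binds sialomucins, each rose by about 1 log2 (1.03 and 1.02). Podxl2, the remaining member of the CD34 family, had 1 count in DMSO and 2 in DTG and was not tested.

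The enzymes that build mucin-type sugars split nearly evenly. Of 28 tested genes 10 rose and 11 fell, against 27.4% and 29.3% of all genes tested, with a median log2 change of -0.12. The median was -0.05, -0.06 and -0.07 without DTG replicate 2, DTG replicate 3 and DMSO replicate 3, and -0.07 with the tag as a term. It was -0.21 with upper-quartile factors or a filter at 1 CPM, and -0.29 with library-size scaling, where 6 rose and 14 fell. Nans, an enzyme of sialic acid synthesis, rose from 24.0 ± 2.00 to 87.3 ± 5.45 CPM (SD, n = 3 each; edgeR adjusted p = 2.35e-07). Other genes of that route, chosen after their values were seen, were Gne, at 48.8 and 83.6 CPM, and Cmas, at 35.9 and 51.7 CPM in DMSO and DTG, and each rose. Slc35a1, the sialic acid transporter gene of the list, went the other way, at 24.0 and 20.7 CPM, and did not pass (edgeR adjusted p = 0.0731). The sialyltransferase gene St6galnac6 fell from 13.5 ± 1.32 to 4.66 ± 0.54 CPM and the fucosyltransferase gene Fut4 from 3.00 ± 0.69 to 1.08 ± 0.15 CPM (edgeR adjusted p = 5.14e-06 and 0.000208). C1galt1, which makes the core O-glycan, was at 22.2 ± 6.41 and 29.1 ± 1.00 CPM and did not pass (edgeR adjusted p = 0.0699). It passed in 5 of 16 alternatives, including the one that left out DMSO replicate 3 (0.65 log2, edgeR adjusted p = 0.000512, range 0.000512 to 0.267). St3gal1, which caps it with sialic acid, rose from 113 ± 4.96 to 136 ± 8.84 CPM (edgeR adjusted p = 0.0160). That call was lost with library-size or upper-quartile scaling and without DMSO replicate 1 (edgeR adjusted p = 0.363, 0.0934 and 0.0636, range over 16 alternatives 0.00299 to 0.363).

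Relatives of Ly6a and Ly6c1 were mostly lower. Of 14 tested genes of the LY6 and urokinase receptor family, 10 fell and 1 rose, with a median log2 change of -1.05, and 18 further matched genes had too few counts to be tested. Psca (84 counts in all DMSO and 26 in all DTG libraries) and Ly6g6e (42 and 17) were near the detection limit. The count filter kept them through DMSO, where they were high, so their falls are not read as support. With a filter at 1 CPM in 3 libraries, 8 of 11 tested genes fell and 1 rose. Of all 12090 genes tested at that filter, 3646 fell and 3620 rose. Gpihbp1, which carries lipoprotein lipase across capillary endothelium, fell from 54.4 ± 6.24 to 12.9 ± 0.53 CPM (SD, n = 3 each; edgeR adjusted p = 2.46e-07). Ly6e, an interferon-induced relative, fell from 1282 ± 117 to 773 ± 158 CPM (edgeR adjusted p = 0.00105). Ly6f, a close paralog of Ly6a (84.6% of aligned coding bases identical), fell from 12.2 ± 1.07 to 1.95 ± 0.72 CPM (edgeR adjusted p = 5.05e-06). Plaur, the urokinase receptor gene, was the 1 that rose, from 28.8 ± 1.81 to 84.5 ± 0.73 CPM (edgeR adjusted p = 2.66e-07).

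Genes of GPI anchor synthesis rose in 9 and fell in 12 of 30 tested cases, against 27.4% and 29.3% of all genes tested. Their median log2 change was -0.06. Without DTG replicate 2 the counts were 9 and 9 with a median of 0.0035, and without DTG replicate 3 they were 9 and 9 with a median of -0.03. With library-size scaling 4 rose and 14 fell (median -0.23), and with upper-quartile factors 7 and 13 (median -0.16). Piga, the catalytic gene of the first step, rose from 16.7 ± 1.01 to 147 ± 46.5 CPM (SD, n = 3 each; edgeR adjusted p = 3.73e-05). Pigw, an inositol acyltransferase gene, rose from 8.62 ± 1.29 to 16.2 ± 1.01 CPM (edgeR adjusted p = 0.000131). Pgap4 (Tmem246 in the name table), a remodelling enzyme gene, was at 1.67 CPM with DMSO and 3.88 CPM with DTG and passed as higher although libraries overlapped (edgeR adjusted p = 0.0101).

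Of 9 interferon regulators 5 fell and none rose, with a median log2 change of -0.41, and 8 fell with library-size scaling. The interferon regulatory factor gene Irf7 dropped from 32.2 ± 6.32 to 19.1 ± 3.76 CPM (SD, n = 3 each). The receptor subunit gene Ifngr2 dropped from 130 ± 7.80 to 90.9 ± 4.42 CPM (edgeR adjusted p = 0.00344 for Irf7 and 0.000310 for Ifngr2). Whether these changes bear on Ly6a and Ly6c1 was not tested. Among the 10 endothelial markers 7 fell and none rose, with a median log2 change of -0.73. Pecam1, the junctional adhesion gene, fell from 1433 ± 60.5 to 819 ± 103 CPM (SD, n = 3 each; edgeR adjusted p = 7.49e-05), whereas the VE-cadherin gene Cdh5 had means of 1874 ± 117 and 2115 ± 106 CPM and missed the threshold (edgeR adjusted p = 0.0994). Under DESeq2 (adjusted p = 0.0448), and in edgeR once DTG replicate 1 was left out (adjusted p = 0.0228), Cdh5 did pass as higher. Its adjusted p ranged from 0.0228 to 0.982 over 16 alternatives.

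**Figure D4:**
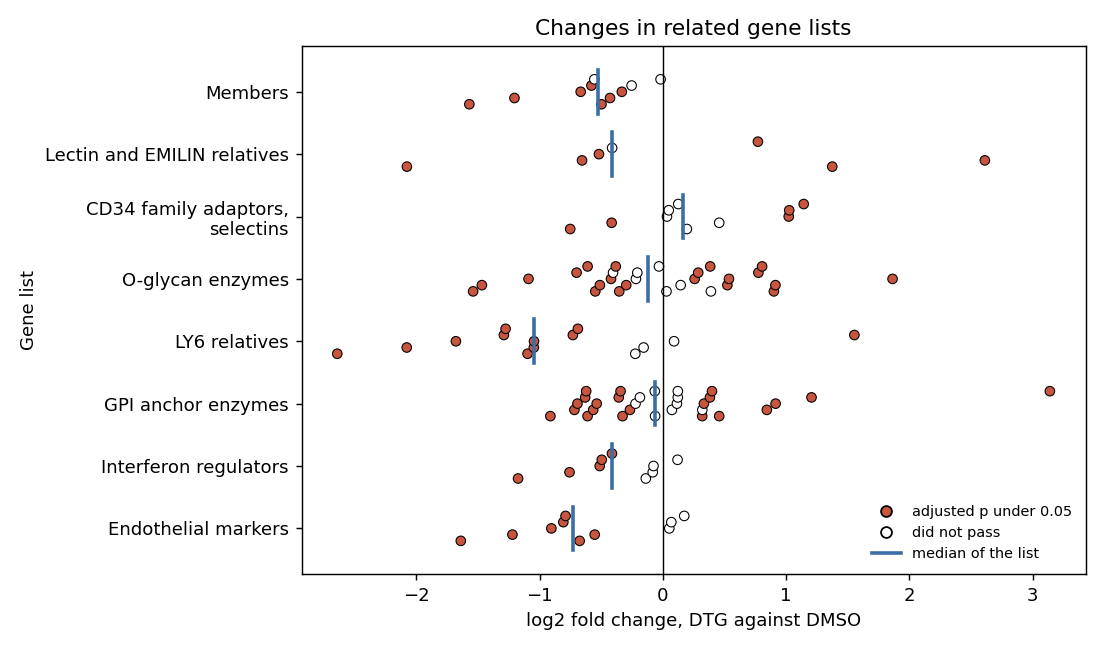
Log2 fold change (horizontal axis) of every tested gene in the member list, 6 related lists and the endothelial markers, with filled circles for genes with an adjusted p under 0.05 and a blue line at the median of each list. The LY6 relatives and the endothelial markers lie mostly below 0, with medians of -1.05 and -0.73, while the O-glycan and GPI anchor enzymes lie on both sides.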

How the data were processed

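The authors deposited 1 table of raw counts, whole numbers per Ensembl gene identifier with no normalization. Per the submitters' processing notes the build was GRCm39. No aligner, counter, strand setting or annotation version is given in the sources used here. Per the labels' protocols, RNA was isolated with TRIzol and entered a stranded poly(A) library kit. Reference names matched 38606 identifiers (89.2%) and 197 of 199 list entries, 5 of them by synonym.

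Genes were kept by filterByExpr (14101), scaled by TMM and compared in R 4.3.3 with edgeR 4.0.16 (quasi-likelihood F-test, robust, group as the only term). The SE of a log2 fold change was taken as its size over the root of F. Ratios were compared by exact permutation of libraries. Alternatives were DESeq2 1.42.0, limma-voom (limma 3.58.1), other scalings and filters, no robust estimation, a block, the tag and leaving out each library. The pipeline was tested on simulated counts. No 2 libraries of a group agreed within counting noise (chi-square per degree of freedom at least 8.65).

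Members and lists were chosen with earlier results of these data known. Named genes were the members, up to 3 genes per list with the largest change that passed and at least 1 CPM, and 16 fixed genes. Genes named otherwise were chosen after their values were seen. Spred1 and Vcam1 were named as the remaining targets tested. One gene of the naming rule is not reported here, and protein sequences were not used here.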

Additional observations from a re-analysis of the deposited data

How the results depend on the processing

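The number of member genes called lower was 7 to 8 under other tests, scalings, filters, the replicate block and the tag, and 6 to 9 when single libraries were left out. At a log2 change of at least 1 it was 2. Over all genes, 6470 to 8518 of the tested genes were called when single libraries were left out (7990, or 56.7%, with all). Of the related genes, 62 to 73 were then called (70 with all). Those tested were 7 lectin and MMRN2 relatives, 10 genes around the sialomucins, 28 O-glycan enzymes and 14 LY6 relatives. A further 30 were GPI anchor genes, 9 were interferon regulators and 3 were miR-126 targets. Without single libraries the log2 difference ranged from -1.15 to -1.03 for the ratio of Clec14a to Cd93, from 0.44 to 0.86 for Cd93 to Mmrn2, from 0.19 to 0.27 for Podxl to Cd34 and from 0.25 to 0.35 for Ly6a to Ly6c1. Library-size scaling shifted the all-gene median by -0.17 log2 from its TMM value, and upper-quartile factors by -0.09. Among calls, 48.3% were in the higher direction under TMM, against 30.7% under library size and 38.2% under upper quartiles. Same-numbered replicates did not deviate together (r of -0.28, 0.01 and -0.05 across genes). Each of those pairs joins libraries of different tags, so these values cannot tell whether the numbers mark pairs. Libraries of the 2 groups with the same tag did deviate together. Their r across genes was 0.17, 0.20, 0.11 and 0.17, against 0.01 at most for pairs of different tags. Deviations were taken from the mean of each library's own group, so these r values are tied to one another and are not separate evidence. With the replicate block 7 members, 66 related genes and 7271 of all genes were called. Under the block Pgap4 missed the threshold (edgeR adjusted p = 0.0550) and C1galt1 passed it (edgeR adjusted p = 0.0486). Of the 29 other genes that the naming rule gave and that were tested, 24 kept their call and direction under all alternatives run. Many of them were named because they had the largest change that passed in the main fit, so that choice itself favours a kept call.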

Other observations

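Over the 6 libraries and 9248 other genes with at least 10 CPM, the profiles most like that of Clec14a were those of Parp14, Klhl6 and Myct1 (log2 changes of -1.22, -1.25 and -1.34), each with a Pearson r that rounds to 1.00. The profiles most like that of Ly6a were those of Nup107, Bcap31 and Cnih4 (r of 0.99, 0.99 and 0.98), whose log2 changes were small, at -0.09, -0.07 and -0.11. These values describe 6 libraries that share the 2 groups and the tags, and they carry no test.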
